A study of Mus musculus with 111 samples.

Results

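The genes described here carry fatty acids into the muscle fibre and break them down in its mitochondria. The 10 genes were chosen by name: Fabp3, Cd36, Cpt1b, Cpt2, Acadm, Acadl, Acadvl, Hadha, Hadhb and Acaa2. Of these, 9 had a probe set that the platform annotation assigns to that gene alone, and all 9 were among the 16029 genes tested of 18194 with such a probe set. Cpt1b, the outer membrane carnitine palmitoyltransferase of muscle, had 1 probe set, which lists 3 genes, and no value is given for it. Where a gene had several probe sets, the brightest was used.

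Skeletal muscle takes up long-chain fatty acids with the help of the membrane protein CD36 and holds them in the cytosol bound to the heart-type carrier FABP3. Carnitine palmitoyltransferases on the outer and inner mitochondrial membranes move the activated acyl groups into the matrix. There, chain-length-specific acyl-CoA dehydrogenases, the trifunctional protein and a thiolase shorten the chain step by step, a pathway known to be most abundant in oxidative fibres.

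The study set immobilisation by a hindlimb cast beside unloading by a cut Achilles tendon (tenotomy) in male C57BL/6 mice, 8 weeks old in both models. Gastrocnemius, a calf muscle of mostly fast fibres in the mouse, was profiled on 1 Affymetrix array per muscle, 111 arrays from 70 animals in 16 groups. The cast (right) legs gave 10, 7 and 9 arrays at days 2, 7 and 14, and the uncast left legs of the casting cohort gave 9, 8 and 9. In the tenotomy cohort, the legs labelled tenotomy (left) gave 5, 7 and 5 arrays, and the legs labelled control (right) gave the same numbers. Sham-operated mice, whose tendon was exposed and handled but left whole, gave 3, 7 and 8 arrays from right legs. Untouched naive mice, labelled day 0, gave 7 arrays from right legs. The labels give the sham and naive mice no age. The labels name no genetic change and give an animal number to each muscle, and animals of a group are separate animals.

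The series' design text states that the right tendon was cut, whereas the sample labels put tenotomy on the left leg. The sample labels were used, and differences are given as left (labelled tenotomy) minus right (labelled control). Under the design text's reading, the sign of each of those leg differences turns. Macrophage markers, which mark tissue that immune cells have entered, were high in the right legs: their summed signal at day 2 had a median of 1160 in left legs against 13105 in right legs, and of 1512 in sham legs. Each leg was therefore also set against sham legs, which does not depend on the label of the other leg.

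Signals are linear intensities on the scale of the MAS5 algorithm, and each array's trimmed mean lies between 99.955 and 99.965. Differences are on the scale of log2 of the signal plus 3.98 and come from limma, with p-values adjusted over all tested genes of a comparison and 0.05 as the threshold for a call. The arrays are bulk muscle, so fewer cells of a type and less RNA per cell cannot be told apart. Muscle fibre markers were bright in naive muscle, with Ckm (muscle creatine kinase) at 16640 ± 1580 and Acta1 (skeletal actin) at 16530 ± 1410 (SD, n = 7). The other markers of that list are Pygm and the fast-fibre genes Tnnt3, Tnni2, Tnnc2, Mylpf, Myl1, Atp2a1 and Actn3. Scaling arrays to these markers, as done below, therefore cannot tell fibre content from fibre type. Their naive means ran from 12760 to 18890, and their highest signal was 26400, where the highest of all signals was 27000. The number of arrays limits the precision of every value.

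The start sites of 8 of the genes have a promoter in the RefSeq table used here (build GRCm38.p6). Sequences of 4 are shown as examples, and other genes of the set differed between legs too. Fabp3 moved most in the leg differences described below, and Hadhb shares its upstream region with Hadha. Acadm and Acadvl hold the letters AGGTCA, a core motif of nuclear receptors such as the PPARs, as does Cd36, which is not shown. A link between AGGTCA and the leg differences was not tested. Each run is the 250 bases before the start site, 5′ to 3′ on the gene's strand, with AGGTCA or its reverse complement in capitals. Fabp3 lies at chr4:130308488-130308737 on the plus strand, Hadhb at chr5:30155003-30155252 on the plus strand, Acadm at chr3:153944644-153944893 on the minus strand, and Acadvl at chr11:70015429-70015678 on the minus strand.
Fabp3: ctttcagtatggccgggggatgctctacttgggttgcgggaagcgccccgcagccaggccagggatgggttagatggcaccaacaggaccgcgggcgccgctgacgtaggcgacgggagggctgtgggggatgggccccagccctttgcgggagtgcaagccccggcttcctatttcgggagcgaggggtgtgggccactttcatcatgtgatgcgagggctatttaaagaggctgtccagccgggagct
Hadhb: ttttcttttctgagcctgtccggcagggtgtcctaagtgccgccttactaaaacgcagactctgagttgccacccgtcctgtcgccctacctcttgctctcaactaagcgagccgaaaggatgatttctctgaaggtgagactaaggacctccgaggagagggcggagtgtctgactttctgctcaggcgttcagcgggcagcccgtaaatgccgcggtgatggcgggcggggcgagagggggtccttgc
Acadm: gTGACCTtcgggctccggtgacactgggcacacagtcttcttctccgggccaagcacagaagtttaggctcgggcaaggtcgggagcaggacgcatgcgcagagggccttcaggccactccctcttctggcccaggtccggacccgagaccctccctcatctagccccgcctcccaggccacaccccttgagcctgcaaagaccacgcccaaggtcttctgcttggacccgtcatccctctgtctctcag
Acadvl: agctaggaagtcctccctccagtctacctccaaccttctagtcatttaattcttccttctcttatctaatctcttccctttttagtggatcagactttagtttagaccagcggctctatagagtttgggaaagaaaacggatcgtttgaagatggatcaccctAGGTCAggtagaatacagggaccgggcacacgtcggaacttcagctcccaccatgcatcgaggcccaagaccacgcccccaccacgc

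AGGTCA was found on either strand in 3 of 8 promoters (Cd36, Acadm and Acadvl), against 16.0% of 27025 mouse promoters. Each promoter window runs from 250 bases before to 50 after the start site, the first listed for the gene. For Cd36 that site, at 17835896 on the minus strand of chromosome 5, lies inside the gene, which spans 17781690 to 17888959. The direct repeat of AGGTCA spaced by 1 base was found in 0 of the 8, against 0.0444% of all promoters, and the estrogen-related receptor motif TNAAGGTCA, which contains AGGTCA, in 0 of the 8, against 1.26%. The GC box GGGCGG was found in 5 of the 8, against 35.9%, the CCAAT box CCAAT in 1, against 37.9%, and TATAAA in 0, against 14.2%. The start sites of Hadha and Hadhb lie 273 bases apart on opposite strands of chromosome 5, so that their upstream runs of 250 bases overlap by 228. The GC box of Hadha at -188 to -183 and that of Hadhb at -90 to -85 are the same site in this overlap.

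**Figure D1:**
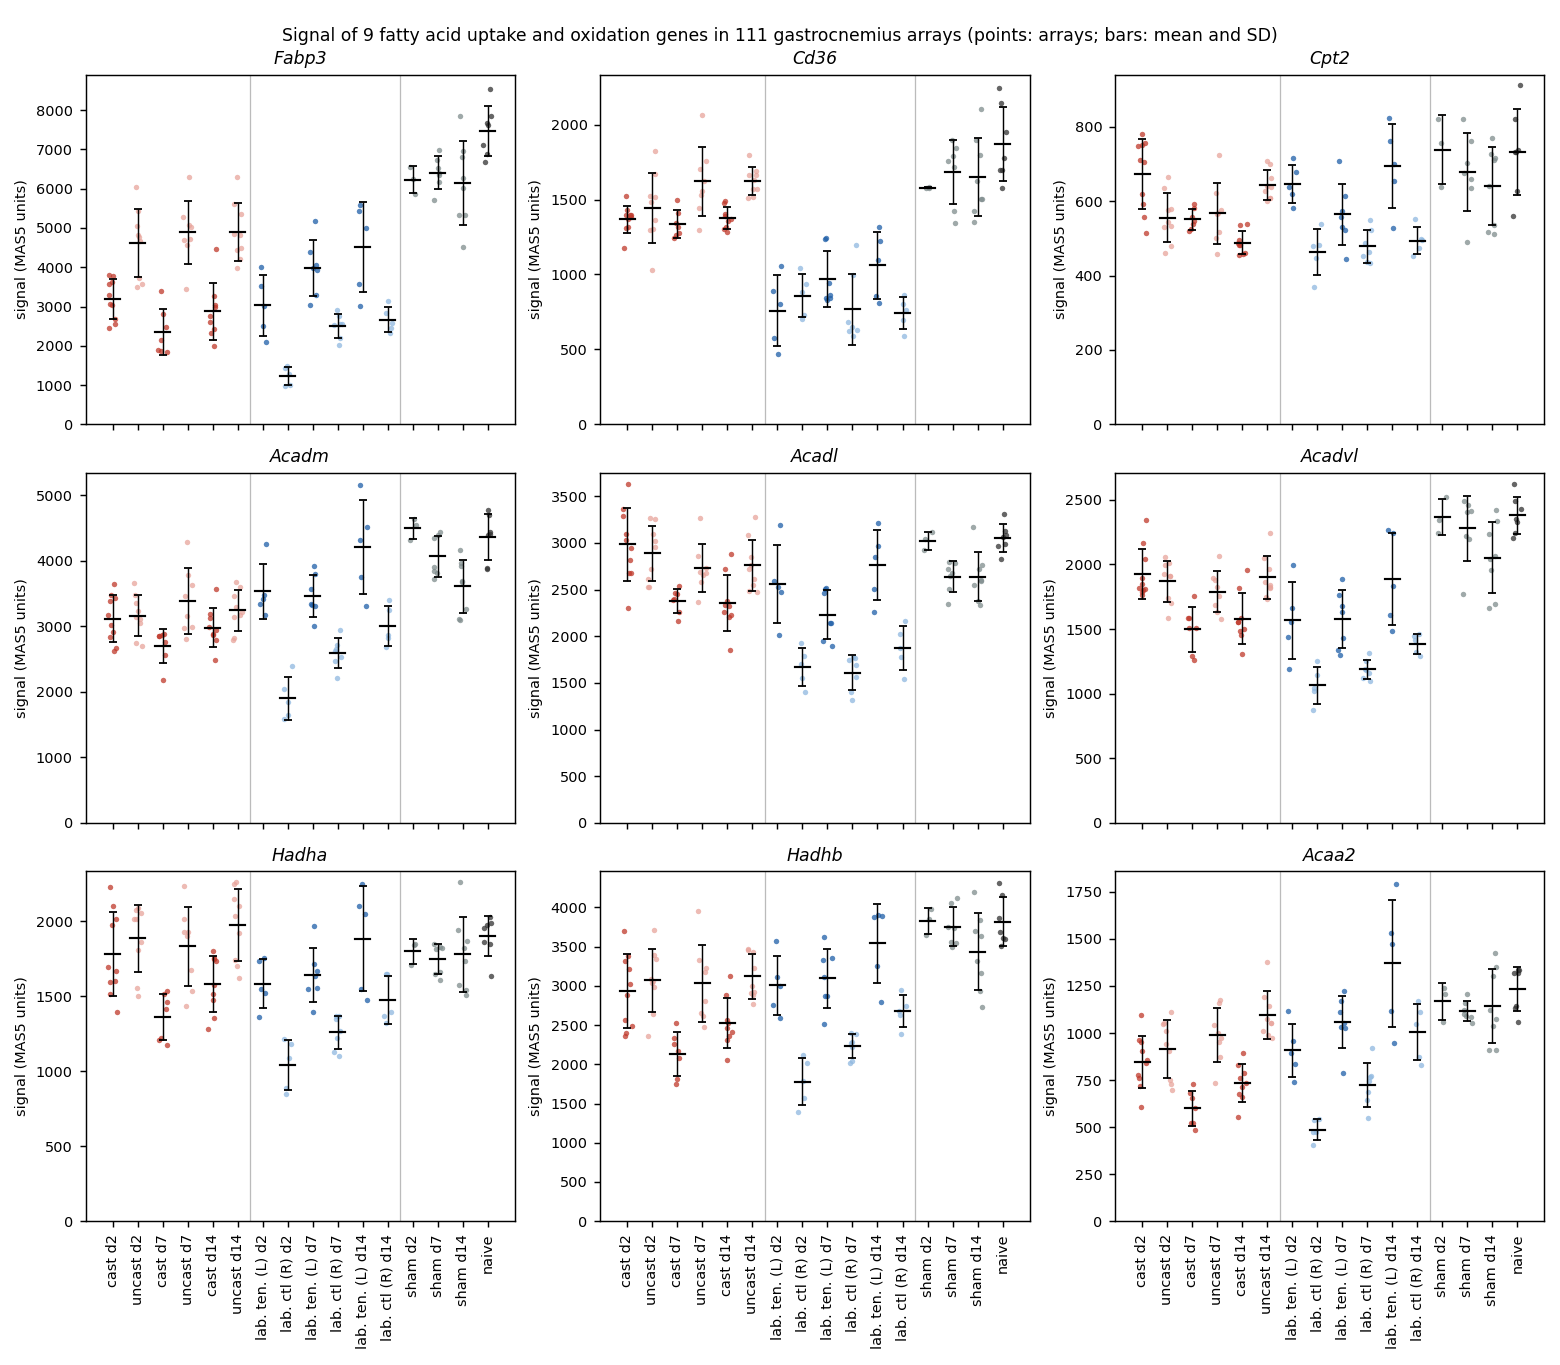
Signal of each of the 9 measured genes in every array (points), with the mean and SD of each group (black). Groups run from cast and uncast legs, through left (labelled tenotomy, marked L) and right (labelled control, marked R) legs, to sham and naive legs; Fabp3 is highest in naive and sham legs and lowest in right legs at day 2.

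In cast legs, Fabp3 fell at all 3 days. Of the 6 enzymes of the beta-oxidation spiral, 5 fell at day 7, all but Acadl, and 5 at day 14, all but Acadm. On day 2, 2 of 9 genes were called, against 24.3% of all tested genes: Fabp3 lower (13.3% of all genes were) and Cpt2 higher (11% were). By day 7, 6 of 9 fell, against 8.77% of all genes called (4.55% lower). By day 14, 7 of 9 fell, against 13.2% called (6.04% lower). The cast legs lay below the uncast legs without overlap for 0, 2 and 3 of 9 genes, against 0.468% of all genes at day 7 and 0.512% at day 14. The median difference of the 9 genes was -0.06, -0.32 and -0.31 at days 2, 7 and 14, where the median of all genes was -0.03, 0.01 and 0.04.

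Fabp3, the carrier that buffers fatty acids in the cytosol, had signals with a lowest, median and highest of 2464, 3176 and 3799 in cast legs at day 2, against 3494, 4781 and 6035 in uncast legs. At day 7 these were 1831, 2151 and 3393 in cast legs, against 3443, 4879 and 6301 in uncast legs. At day 14 they were 1984, 2766 and 4467 in cast legs, against 3975, 4812 and 6294 in uncast legs. The legs overlapped at days 2 and 14 and did not at day 7. Fabp3 was lower by -0.52 ± 0.11, -1.07 ± 0.12 and -0.79 ± 0.11 log2 at the 3 days (standard error; limma adjusted p = 9.34e-05, 2.52e-10 and 2.04e-07), in 8 of 9, 7 of 7 and 9 of 9 animals with both legs. These differences are 0.70, 0.48 and 0.58 times the uncast level.

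Cd36, the fatty acid translocase of the cell surface, was not called at any day of casting in the fit over all groups. Its mean signal was 1370 ± 90.2 (n = 10), 1337 ± 90.5 (n = 7) and 1377 ± 71.4 (n = 9) in cast legs, against 1445 ± 232 (n = 9), 1622 ± 229 (n = 8) and 1624 ± 93.2 (n = 9) in uncast legs (SD). At day 14 the legs did not overlap, with 1286 to 1488 in cast legs and 1507 to 1799 in uncast legs, and the cast leg was lower in 9 of 9 animals. The difference of -0.24 ± 0.10 log2 had an adjusted p of 0.105 by limma. It was called with array weights (-0.25, adjusted p = 0.0327) and in a fit of only the groups compared (-0.24, adjusted p = 0.0037). The day 7 difference of Cd36 (-0.27, limma adjusted p = 0.125) was called in those settings too, with adjusted p of 0.0471 and 0.0332.

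Cpt2, the inner-membrane carnitine palmitoyltransferase, changed its direction with time in the cast by the probe set used. Its lowest, median and highest signals at day 2 were 514, 708 and 781 in cast legs, against 462, 543 and 665 in uncast legs. At day 14 they were 456, 483 and 539 in cast legs, against 599, 637 and 708 in uncast legs. Cast legs were mostly above uncast legs at day 2, with overlap, and wholly below them at day 14, in 9 of 9 animals. The differences were 0.27 ± 0.08, -0.03 ± 0.09 and -0.39 ± 0.08 log2 at days 2, 7 and 14 (limma adjusted p = 0.00508, 0.916 and 0.000173). The change between day 2 and day 14 was itself called, at -0.66 ± 0.11 log2 (limma adjusted p = 6.58e-06). A second, dim probe set of Cpt2 (mean signal 26.5) differed by 0.28, -0.05 and 0.05 log2 at days 2, 7 and 14. It thus showed no fall at day 14.

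The acyl-CoA dehydrogenases had small differences between cast and uncast legs. Acadvl, which acts on very long chains, had a mean of 1498 ± 173 at day 7 (n = 7) and 1581 ± 197 at day 14 (n = 9) in cast legs, against 1789 ± 161 (n = 8) and 1900 ± 164 (n = 9) in uncast legs (SD), differences of -0.26 and -0.27 log2 that were both called (limma adjusted p = 0.0274 and 0.00663). Acadl, the long-chain enzyme, was called at day 14 alone (-0.23 ± 0.07 log2, limma adjusted p = 0.0171). Acadm, the medium-chain enzyme, was called at day 7 alone (-0.32 ± 0.08 log2, limma adjusted p = 0.00348). With the animal as a fixed replicate block in limma, Acadvl was not called at day 7 (-0.25, adjusted p = 0.0755), nor Acadl at day 14 (-0.23, adjusted p = 0.0501). At day 7 the cast leg was the lower in 7 of 7 animals for each of these 3 enzymes.

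The trifunctional protein and the thiolase showed the larger enzyme differences at day 7. Hadha, its alpha subunit with the hydratase and dehydrogenase activities, had a lowest, median and highest signal of 1178, 1415 and 1536 in cast legs at day 7, against 1437, 1913 and 2235 in uncast legs. Hadhb, the beta subunit with the thiolase activity, had 1745, 2169 and 2524 in cast legs, against 2476, 2995 and 3955 in uncast legs. Acaa2, the mitochondrial 3-ketoacyl-CoA thiolase, had 482, 600 and 731 in cast legs, against 734, 988 and 1178 in uncast legs. The legs overlapped narrowly for Hadha and Hadhb and did not overlap for Acaa2. The day 7 differences were -0.42 ± 0.09 for Hadha, -0.50 ± 0.09 for Hadhb and -0.72 ± 0.10 for Acaa2, with limma adjusted p of 0.000293, 1.24e-05 and 1.38e-07. At day 14 they were -0.32, -0.31 and -0.58, with adjusted p of 0.00245, 0.0035 and 3.44e-06. Acaa2 was lower in the cast leg of 7 of 7 animals at day 7 and 9 of 9 at day 14.

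Across the 9 genes, 58 of 63 within-animal differences at day 7 and 74 of 81 at day 14 were lower in the cast leg, where 46 of 81 were at day 2. These counts pool genes measured in the same animals, so they do not count replicates, and no share over all genes stands beside them. Between day 2 and day 14, 4 of 9 leg differences became more negative past the threshold (Cpt2, Acadl, Acadvl and Acaa2), against 14.3% of all genes called (6.03% lower). The change of Acadl (-0.28, limma adjusted p = 0.0448) was lost with the animal as a fixed replicate block (0.0885), without a replicate block (0.0656), with only the groups compared (0.0758) and without the filter on low values (0.053). Slow fibre markers moved alongside: 2, 5 and 6 of 10 were lower in cast legs at days 2, 7 and 14, with medians of -0.03, -0.63 and -0.75 log2, and 0 rose. Their summed signal at day 7 was 18660 to 24661 in cast legs, against 29688 to 42917 in uncast legs. The part of fibre type in the Fabp3 and enzyme differences was not tested.

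Macrophage markers were higher in cast legs for 3 of 10 genes at day 7 and 10 of 10 at day 14, and 6 of 10 were lower at day 2. Muscle fibre markers were called for 0 of 10 at each day in limma, with medians of -0.30, -0.16 and 0.00. When each array was instead set to the mean of its 10 muscle fibre markers, 1 of 9 genes was called at each day: Cpt2 higher at day 2 (0.56), and Fabp3 lower at days 7 (-0.92) and 14 (-0.79). Under that scaling the median of all genes was 0.25, 0.16 and 0.04 log2 and that of the 9 genes 0.22, -0.16 and -0.31, and Fabp3 at day 2 was not called (-0.24).

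**Figure D2:**
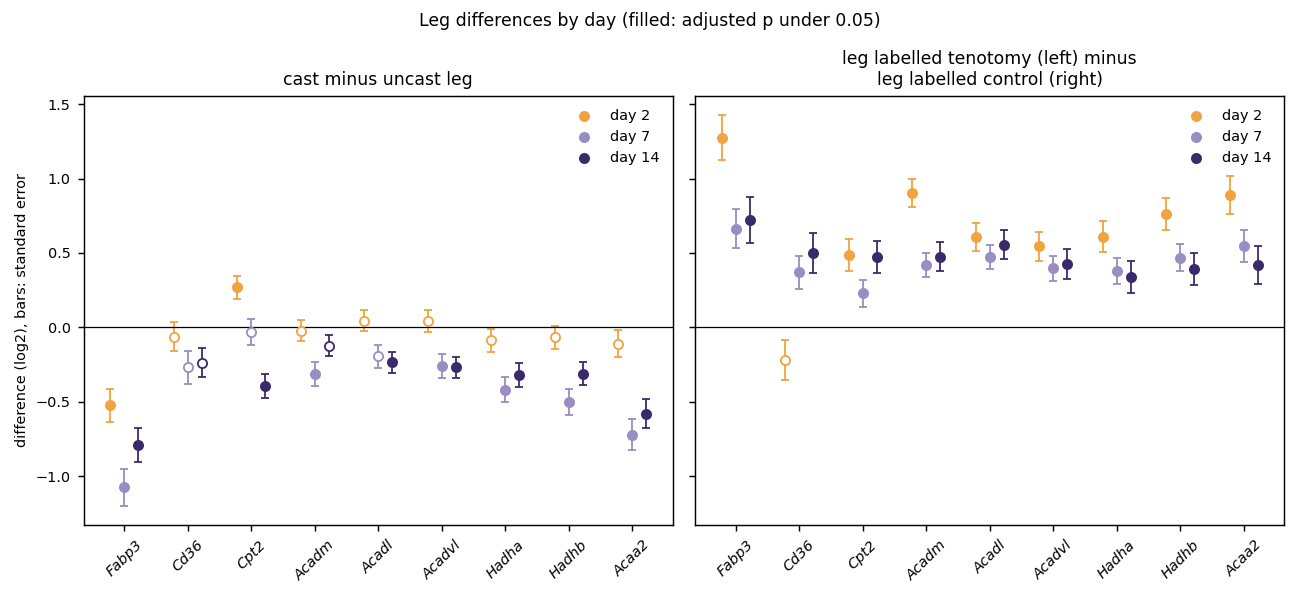
Leg difference of each gene in log2 with its standard error, cast minus uncast on the left panel and left (labelled tenotomy) minus right (labelled control) on the right panel, by day; filled points are called. Differences after casting lie at or below 0 from day 7 on, and those in the tenotomy cohort lie above 0 except for Cd36 at day 2; under the muscle fibre scaling Cpt2 turns at day 7 of casting and at days 2 and 7 in the tenotomy cohort.

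In the tenotomy cohort the genes were higher in the left legs, labelled tenotomy, than in the right legs, labelled control. On day 2, 8 of 9 were higher, against 36.7% of all genes called (15.9% higher). On day 7, 9 of 9 were higher, against 32.9% (14.6% higher). On day 14, 9 of 9 were higher, against 23.2% (9.71% higher). Left legs lay above right legs without overlap for 7, 5 and 2 of 9 genes, against 9.63%, 2.51% and 6.31% of all genes. The median difference of the 9 genes was 0.61, 0.42 and 0.47 log2, where that of all genes was -0.03, 0.00 and -0.02. Over the animals with both legs, 41 of 45, 61 of 63 and 32 of 36 within-animal differences were higher on the left at days 2, 7 and 14. These too pool genes of the same animals and do not count replicates, and no share over all genes stands beside them.

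Fabp3 had signals of 3004, 4015, 2100, 3514 and 2506 in left legs at day 2, against 1484, 1281, 986, 1423 and 1000 in right legs. At day 14 it had 3582, 5577, 3015, 4987 and 5438 in left legs, against 2825, 3138, 2454, 2591 and 2320 in right legs. The left legs were all above the right legs at day 2, and at day 14 only the lowest left leg lay among the right legs. The differences were 1.27 ± 0.15, 0.66 ± 0.13 and 0.72 ± 0.15 log2 at days 2, 7 and 14 (limma adjusted p = 1.03e-11, 1.28e-05 and 0.000136), with the left leg higher in 5 of 5, 7 of 7 and 4 of 4 animals. The animals were uneven at day 14, with within-animal differences of 1.23, 1.18, 0.19 and 0.09 log2.

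Cd36 differed from the other genes at day 2. It had 806, 1056, 469, 888 and 578 in left legs, against 885, 937, 1043, 732 and 701 in right legs. The legs overlapped throughout, and the difference was -0.22 ± 0.13 log2 (limma adjusted p = 0.206). At days 7 and 14 it was higher on the left by 0.37 and 0.50 log2 (limma adjusted p = 0.00665 and 0.00317), and the change between days 2 and 14 was called at 0.72 ± 0.19 log2 (limma adjusted p = 0.00711). Its 3 probe sets disagreed at day 2, with -0.22 for the one used and -0.34 and 0.42 for the others. The change over time was not called without left replicate 3 of day 2, where the value was 0.56, with the animal as a fixed replicate block (0.73, limma adjusted p = 0.0507) or with only the groups compared (0.72, adjusted p = 0.0714). Over all genes tested, 8.15% were called for such a change over time (5.28% higher and 2.86% lower).

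Cpt2 had 583, 716, 638, 619 and 677 in left legs at day 2, against 539, 480, 481, 447 and 370 in right legs. Every left leg was above every right leg, and the difference was 0.48 ± 0.11 log2 (limma adjusted p = 9.19e-05). It was 0.23 at day 7 and 0.47 at day 14, both called. The dim probe set of Cpt2 differed by -0.17, 0.09 and 0.43 log2 at days 2, 7 and 14.

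Acadm had 3348, 4252, 3179, 3474 and 3416 in left legs at day 2, against 1849, 2390, 1642, 2043 and 1584 in right legs. The legs were well apart, and the difference of 0.90 ± 0.10 log2 was 1.87 times the right-leg level (limma adjusted p = 9.06e-14). Acadl had 2527, 2593, 2016, 3188 and 2479 in left legs at day 2, against 1930, 1699, 1551, 1786 and 1403 in right legs, without overlap. Acadvl had 1554, 1660, 1192, 1994 and 1435 in left legs, against 1256, 1017, 1141, 1041 and 871 in right legs, and 1 left leg lay among the right legs. These enzymes differed by 0.61 ± 0.10 and 0.55 ± 0.10 log2 (limma adjusted p = 7.51e-08 and 2.14e-06). At days 7 and 14 the 3 dehydrogenases were higher on the left by 0.40 to 0.56 log2, with every adjusted p by limma at or below 0.000512. The difference of Acadm was smaller at day 14 than at day 2, by -0.43 ± 0.14 log2 (limma adjusted p = 0.0338). That call was lost without any 1 of 7 libraries: left replicate 2 or right replicate 3 or 5 of day 2, or left replicate 1 or 3 or right replicate 4 or 5 of day 14, with values between -0.34 and -0.40. With the animal as a fixed block it was not called (-0.41).

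Hadha had 1363, 1753, 1524, 1734 and 1545 in left legs at day 2, against 1214, 1086, 885, 1180 and 849 in right legs. Hadhb had 2757, 3574, 2589, 3117 and 2998 in left legs, against 1787, 2122, 1568, 2020 and 1398 in right legs. Acaa2 had 835, 1115, 739, 960 and 895 in left legs, against 537, 545, 474, 472 and 405 in right legs. The left legs were above the right legs without overlap for all 3 genes. Their differences were 0.61 ± 0.11, 0.76 ± 0.11 and 0.89 ± 0.13 log2 (limma adjusted p = 8.37e-07, 2.26e-09 and 4.23e-09). At day 14 they were 0.34, 0.39 and 0.42, and for Acaa2 the left leg was the higher in 2 of 4 animals. The day 14 call of Hadha was lost without left replicate 2 or 5 (limma adjusted p = 0.0565 and 0.0793) and under quantile normalization (0.161). That of Acaa2 was lost without left replicate 5 (0.0903) or right replicate 3 (0.0628), and with only the groups compared (0.053). Leaving out 1 array at a time, 7 to 9 of the 9 genes were called at day 14. Hadhb had 3 probe sets, and the one used differed by 0.76, 0.47 and 0.39 log2 at days 2, 7 and 14. Another bright one (mean signal 1207) differed by 0.57, 0.03 and 0.27, and a dim one (24.4) by 0.30, 0.43 and -0.11.

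Markers of other cells differed strongly between these legs. Macrophage markers were lower on the left for 10, 9 and 8 of 10 genes at days 2, 7 and 14, with medians of -3.15, -1.70 and -1.27 log2, and fibroblast markers for 9, 10 and 9 of 10. Tenocyte markers were lower for 3, 6 and 6 of 8. Muscle fibre markers were higher on the left for 5, 1 and 0 of 10, and slow fibre markers for 5, 5 and 2 of 10. The log2 ratio of the 3′ to the 5′ actin control probes, a sign of RNA quality, averaged -0.83 ± 0.17 in left legs against -0.02 ± 0.30 in right legs at day 2 (SD, n = 5 each). The same ratio of the Gapdh control probes was alike there, at -0.27 ± 0.05 in left legs and -0.25 ± 0.04 in right legs (SD, n = 5 each). The part of each of these in the gene differences was not tested.

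With each array set to its muscle fibre markers, 2, 0 and 0 of 9 genes were called, Fabp3 higher (0.77) and Cd36 lower (-0.73) at day 2. Under that scaling the median of all genes was -0.53, -0.34 and -0.27 log2 and that of the 9 genes 0.10, 0.08 and 0.22. The direction of Cpt2 turned under it at days 2 (-0.02) and 7 (-0.11).

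**Figure D3:**
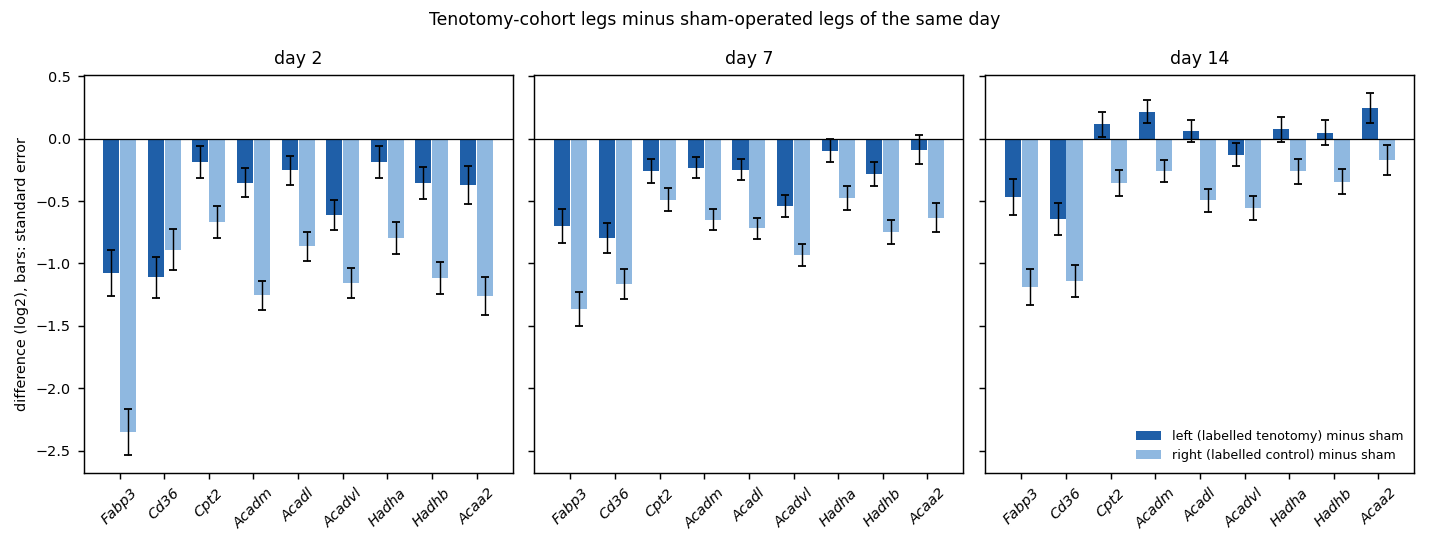
Difference of each gene in log2 between tenotomy-cohort legs and sham legs of the same day, with standard errors, for left legs (labelled tenotomy, dark) and right legs (labelled control, light). Right legs lie below sham at every day for all 9 genes. Left legs lie below sham at days 2 and 7, with Fabp3, Cd36 and Acadvl still below at day 14. Under the muscle fibre scaling 3, 7 and 0 left-leg genes and 2, 6 and 1 right-leg genes turn at days 2, 7 and 14.

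Set against sham legs, the right legs, labelled control, had the lower levels of these genes. In the right legs 9, 9 and 8 of 9 genes were lower than in sham at days 2, 7 and 14, against 35%, 41.2% and 35.9% of all genes called (15.5%, 17.7% and 15.3% lower). In the left legs, labelled tenotomy, 4, 7 and 2 of 9 were lower, against 9.99%, 19.1% and 20.7% (5.66%, 9.45% and 10.7% lower). None of the 9 was called higher than sham in either leg. These comparisons cross cohorts, so cohort and treatment cannot be told apart in them, and the left and right comparisons share the same sham legs.

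Fabp3 was lower than sham by -2.35 ± 0.18, -1.37 ± 0.14 and -1.19 ± 0.14 log2 in right legs, and by -1.08 ± 0.18, -0.70 ± 0.14 and -0.46 ± 0.14 in left legs, with every one called. The sham legs had 6560, 6254 and 5865 at day 2, above each of the 10 tenotomy-cohort legs. Cd36 was lower by -0.89, -1.17 and -1.14 log2 in right legs and by -1.11, -0.80 and -0.64 in left legs, all called, so it was low on both sides. In the order of its 16 group means, the single gap wider than the spread of the neighbouring groups lay between cast legs at day 7 (1337) and left legs at day 14 (1061), with the 6 groups of the tenotomy cohort below it.

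Set against sham at day 14, enzymes were called lower in right legs alone. Acadvl, Acadl and Acadm were lower than sham by -0.56, -0.49 and -0.26 log2 in right legs at day 14, each called, and differed by -0.13, 0.06 and 0.22 in left legs, none called. Hadha and Hadhb were lower by -0.26 and -0.35 in right legs (limma adjusted p = 0.031 and 0.00376), and differed by 0.08 and 0.05 in left legs (adjusted p = 0.659 and 0.797). Acaa2 was not called on either side, at -0.17 in right legs and 0.25 in left legs. In right legs the call of Hadha was lost without right replicate 2, 3 or 5 (limma adjusted p = 0.0878, 0.0913 and 0.0795) and under quantile normalization (0.228). That of Acadm was lost without right replicate 3 (0.0806), under quantile normalization (0.188) and with only the groups compared (0.0506). Hadhb in right legs turned to above sham with the mean of its probe sets in place of the brightest. Leaving out 1 right leg at a time, 6 to 8 genes were called. Without left replicate 1, 1 gene was called for left legs at day 14, and Fabp3 was not (-0.38). Without left replicate 3, Fabp3 was not called (-0.33), while Acadm (0.30) and Acaa2 (0.37) were called higher than sham.

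Slow fibre markers were lower than sham on both sides of the tenotomy cohort, for 9, 10 and 8 of 10 genes in right legs and 9, 9 and 6 of 10 in left legs. Their summed signal at day 2 was 2541 to 6280 in right legs and 4237 to 17765 in left legs, against 25116 to 31727 in sham legs. The actin 3′ to 5′ ratio also differed between the cohorts. By group mean it lay between -0.02 and 0.12 in right legs and -0.83 and -0.38 in left legs, against -1.31 to -1.12 in sham legs. The Gapdh ratio lay between -0.29 and -0.205 in right legs and -0.278 and -0.25 in left legs, against -0.208 to -0.169 in sham legs. The part of these measures in the Fabp3 and Cd36 levels was not tested. With the muscle fibre scaling, 1, 2 and 2 of 9 genes were called in right legs and 0, 1 and 0 in left legs. At day 7, 7 genes of the left legs and 6 of the right legs that lay below sham lay above it under that scaling, where the median of all genes was 0.57 log2 in left legs and 0.95 in right legs.

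Sham legs were set against naive legs, which are labelled day 0, so surgery and time cannot be told apart. In limma 0 of 9 genes were called at days 2, 7 and 14, against 0%, 0.63% and 2.26% of all genes, while 0, 1 and 5 of 9 had an unadjusted p under 0.05. At day 14 all 9 differences were negative, between -0.30 (Fabp3) and -0.10 (Hadha), and the lowest adjusted p was 0.0507 (Acadm, 3609 ± 406 in sham, n = 8, against 4358 ± 350 in naive, n = 7; SD). That direction rests on the scaling: with each array set to its muscle fibre markers, 7 of the 9 differences were positive, their median was 0.06 in place of -0.19, and the median of all genes was 0.28.

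The uncast legs of cast mice were lower than naive legs in 7 of 9 genes, against 32.6% of all genes called (12.7% lower). Fabp3 (-0.65 ± 0.11) and Acadm (-0.42 ± 0.07) differed most in log2, and Acadl (-0.13) and Hadha (-0.01) were not called. This direction rests on the scaling. With each array set to its muscle fibre markers, all 9 differences were positive and 8 of 9 genes were called higher, between 0.46 (Acadm) and 0.88 (Hadha), with Fabp3 at 0.23. Muscle fibre markers themselves were lower in uncast than in naive legs for 10 of 10 genes (median -0.88), and the median of all genes was 0.96 log2 under that scaling. Macrophage markers were higher in uncast legs for 9 of 10 genes. The actin 3′ to 5′ ratio averaged -0.73, -0.49 and -0.33 in uncast legs at days 2, 7 and 14, against -1.19 ± 0.08 in naive legs (SD, n = 7). The Gapdh ratio averaged -0.28, -0.279 and -0.286 in those uncast legs, against -0.188 ± 0.05 in naive legs. The part of these measures in the gene differences was not tested. Casting and naive animals come from separate cohorts, and cohort, time and treatment cannot be told apart.

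**Figure D4:**
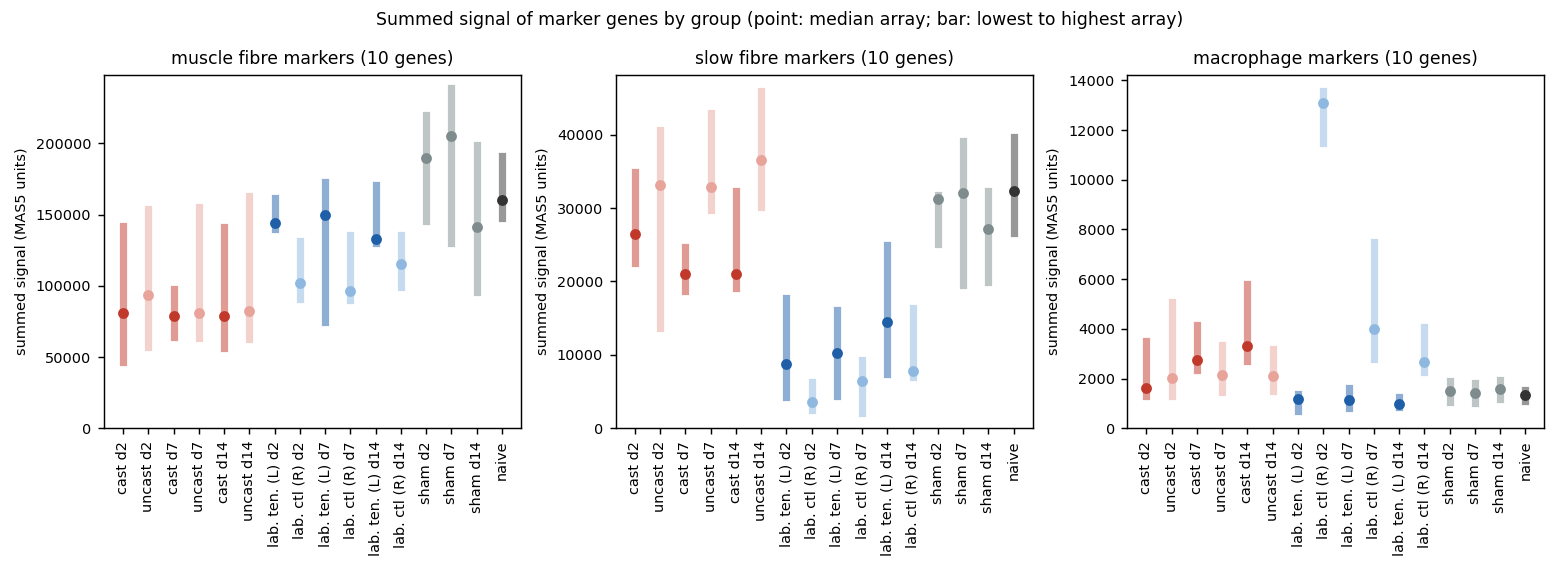
Summed signal of 10 muscle fibre, 10 slow fibre and 10 macrophage markers by group; the point is the median array and the bar runs from the lowest to the highest. Slow fibre markers are low in the 6 tenotomy-cohort groups, and macrophage markers peak in right legs at day 2.

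Over all 16 groups, right legs at day 2 formed the low end for 7 of the 9 genes. Fabp3 had the widest range of group means, between 1235 in right legs at day 2 and 7477 in naive legs. In its order, 4 of the 15 gaps between neighbours exceeded the larger SD of the pair: naive above sham day 7, sham day 14 (6138) above uncast day 14 (4893), left day 7 (3984) above cast day 2 (3189), and cast day 7 (2348) above right day 2. Right legs at day 2 had the lowest mean for Fabp3, Cpt2 (463), Acadm (1902), Acadvl (1065), Hadha (1043), Hadhb (1779) and Acaa2 (487). Acadl was lowest in right legs at day 7 (1608) and Cd36 in right legs at day 14 (743).

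As a description over 16 group means, which share cohorts and scaling, Acadvl followed the mean profile of the 9 genes most closely (Pearson r = 0.98) and Cd36 least (0.75). Each of the 9 is itself part of that profile, and Fabp3, with the widest spread of group means, weighs most in it. Hadhb and Acadm were the most alike pair from either side (0.97). Among all other tested genes, those most like the profile were Ndufa9, a complex I subunit (0.98), Alas1, the first enzyme of haem synthesis (0.97), Sod2, the mitochondrial superoxide dismutase (0.97), Slc25a11, the mitochondrial oxoglutarate carrier (0.96), and Iqsec2 (0.96).

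The rest of the pathway was followed in 6 lists with 71 tested genes. After casting, 13, 5 and 4 were higher and 13, 14 and 15 lower on days 2, 7 and 14, where 11%, 4.22% and 7.17% of all genes were higher and 13.3%, 4.55% and 6.04% lower. Between the tenotomy-cohort legs, 34, 35 and 30 were higher and 7, 6 and 7 lower on the left, where 15.9%, 14.6% and 9.71% of all genes were higher and 20.8%, 18.3% and 13.5% lower. The counts of each list below are to be read against these shares.

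Of the other enzymes of mitochondrial oxidation, 17 were tested. In cast legs 4 rose and 2 fell at day 2, and 7 fell at each of days 7 and 14, with 0 higher. Echs1, the short-chain hydratase, rose at day 2 (0.39 ± 0.07). Acads, the short-chain dehydrogenase, fell by 0.29 and 0.50 log2 at days 7 and 14. Decr1, which handles unsaturated chains, fell at day 14 (-0.33 ± 0.06). Left legs were higher than right legs in 13, 13 and 11 of 17, led by Eci1, an enoyl-CoA isomerase (0.91, 0.57 and 0.68), and including Etfdh, which passes the electrons to ubiquinone (0.75, 0.52 and 0.59).

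The uptake and activation list, 12 tested, did not move as a block. In cast legs 3, 2 and 2 rose and 2, 1 and 0 fell: Acsl6, an acyl-CoA synthetase, was higher at each day (1.35, 0.73 and 0.48), and Vldlr, a lipoprotein receptor, at days 2 and 7 (1.31 and 0.65). Left legs were higher in 4, 3 and 3 and lower in 3, 2 and 2, with Fabp5, a carrier that macrophages also make, lower at each day (-2.77, -0.81 and -0.70), and Slc27a1, a fatty acid transporter, higher at day 2 (0.73).

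In the carnitine shuttle list, 8 tested, cast legs had 1 higher and 1 lower at day 2, 0 called at day 7 (limma) and 1 lower at day 14, Slc25a20, the carnitine-acylcarnitine carrier (-0.44 ± 0.12). Left legs had 3, 3 and 4 higher and 1, 2 and 2 lower. Cpt1a, the liver-type counterpart of Cpt1b, was lower at each day (-1.10, -0.64 and -0.69), and Acacb, which makes the malonyl-CoA that inhibits the shuttle, was higher at each day (0.84, 0.77 and 0.67).

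Peroxisomal genes, 10 tested, were called in both directions in cast legs, 1, 3 and 1 higher and 1, 3 and 2 lower. Hsd17b4, the peroxisomal bifunctional enzyme, was lower at days 2 and 7 (-0.31 and -0.30). Left legs had 3, 4 and 3 higher and 1, 0 and 1 lower, with Pecr, a peroxisomal enoyl-CoA reductase, higher at each day (0.50, 0.53 and 0.39).

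Of 12 lipid droplet genes, cast legs had 3, 0 and 1 higher and 4, 1 and 3 lower. G0s2, an inhibitor of the lipase ATGL, was lower at day 2 (-1.04 ± 0.18), and Plin5, a droplet coat protein of oxidative tissue, at days 2 and 14 (-0.70 and -0.55). Left legs had 6, 5 and 5 higher and 1 lower at each day. Pnpla2, which encodes ATGL, was higher at days 2 and 7 (0.69 and 0.53), and Plin2, a droplet coat protein, was lower at day 2 (-1.73 ± 0.15).

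Among 12 regulators and fuel switch genes, cast legs had 1, 0 and 0 higher and 3, 2 and 2 lower. Ppara, a nuclear receptor that drives fatty acid oxidation genes, was lower at each day (-0.98, -0.68 and -0.54), as was Esrra, the estrogen-related receptor alpha (-0.60, -0.53 and -0.40). At day 2, 1 of the 9 genes was lower as well, Fabp3, where 13.3% of all genes were. The part of Ppara in the differences of the 9 genes was not tested. Left legs had 5, 7 and 4 higher and 1 lower at each day, with Ppara higher at days 7 and 14 (0.71 and 0.68), Ppargc1a, a coactivator of mitochondrial genes, at day 7 (0.87), and Angptl4, an inhibitor of lipoprotein lipase, lower at each day (-2.05, -2.20 and -1.69).

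Respiratory chain genes, 14 tested, fell in cast legs for 0, 6 and 2 genes and were higher in left than right legs for 14, 14 and 12. Glycolysis genes, 11 tested, fell in cast legs for 1, 0 and 0 genes and were higher in left legs for 11, 6 and 1. In cast legs fibroblast markers were lower for 4, 1 and 0 of 10 and higher for 0, 0 and 1, and tenocyte markers were lower for 3, 0 and 2 of 8. Endothelial markers were called for at most 3 of 10 and adipocyte markers for at most 1 of 7 in any leg comparison.

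The models were also set against each other in the same fit. The left-minus-right difference of the tenotomy cohort exceeded the cast-minus-uncast difference in 7, 8 and 9 of 9 genes at days 2, 7 and 14, against 34.9%, 29.5% and 28.7% of all genes called (15.6%, 12.7% and 12% higher). With each array set to its muscle fibre markers, 2, 2 and 1 of 9 were called, 1 of the 2 at day 2 in the opposite direction. At day 2 the median of the 9 genes was then -0.10 and that of all genes -0.82 log2, and 4 of the 9 differences turned negative (Cpt2, Acadl, Acadvl and Hadha). Under the design text's reading, with right minus left in both cohorts, 8 of 9 genes differed at day 2, all more negative in the tenotomy cohort, against 34.1% (14.3% more negative). In limma 0 of 9 differed at days 7 and 14, against 18.8% and 8.14%, with 2 at an unadjusted p under 0.05 at each day. At those days the 9 genes differed by -0.28 to 0.41 log2 and by -0.35 to 0.16 log2.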

How the data were processed

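Total RNA of each gastrocnemius was isolated with Trizol, cleaned on RNeasy columns and labelled from 6 ug, per the labels' protocols. The authors deposited 1 linear intensity per probe set and array. The submitters' processing notes name MAS5 and GCOS, without versions or roles. Trimmed means (2% at each end) of 99.955 to 99.965 show scaling before deposit. Of 45101 probe sets, 34958 list 1 gene, 932 several and 9211 none. The pseudocount of 3.98 is the 20th percentile of all values, and a gene was tested if its signal exceeded the array's 40th percentile in at least 5 arrays.

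limma 3.58.1 in R 4.3.3 fitted 16 group means with trend, over 24 comparisons, treating the animal as random (correlation 0.0964) with Benjamini-Hochberg adjustment per comparison. Animal numbers in the labels pair the legs of 25 casting and 16 tenotomy animals; their residuals correlated by 0.0657 and 0.0597 on average, with 9 and 4 pairs over 0.1. For sham mice at day 2 the group came from the title. The fit was tested on simulated data. The genes and lists were chosen with earlier results of these data known. All measured genes of the set are named in each leg comparison, and of each pathway list up to 3 called genes with the largest difference, of which some are printed. Promoters and positions are from RefSeq, GRCm38.p6.

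Alternatives were another scaling, normalization, pseudocount, filter, probe set rule, array weights, block and sample set, and leaving out arrays. A planned exclusion of arrays by their 10th percentile found 0 arrays; an exclusion of 8 arrays with a raised median signal was added after seeing the data.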

Additional observations from a re-analysis of the deposited data

Results flagged for a closer look

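Of 135 sets of 1 gene in 1 group, 3 held an array far from the rest of its group, where chance marks about 1 in 20. Acadvl in sham legs at day 7 had 1 array at 1773, with the others between 2194 and 2491. Hadha in naive legs had 1 array at 1633, with the others between 1851 and 2025. Acaa2 in left legs at day 7 had 1 array at 789.9, with the others between 1025 and 1223.

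Leg differences that themselves differed past the threshold in limma are given in log2. Between days 2 and 14 of casting, the change was called for Cpt2 (-0.66), Acadl (-0.28), Acadvl (-0.31) and Acaa2 (-0.47). In the tenotomy cohort it was called for Cd36 (0.72) and Acadm (-0.43).

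Tenotomy minus casting by the sample labels was called at day 2 for Fabp3 (1.80), Acadm (0.92), Acadl (0.56), Acadvl (0.50), Hadha (0.70), Hadhb (0.83) and Acaa2 (1.00). At day 7 it was called for Fabp3 (1.74), Cd36 (0.64), Acadm (0.73), Acadl (0.66), Acadvl (0.65), Hadha (0.80), Hadhb (0.97) and Acaa2 (1.27). At day 14 it was called for Fabp3 (1.51), Cd36 (0.73), Cpt2 (0.87), Acadm (0.60), Acadl (0.79), Acadvl (0.70), Hadha (0.66), Hadhb (0.71) and Acaa2 (1.00). Right minus left legs, tenotomy cohort minus casting cohort, was called at day 2 for Fabp3 (-0.75), Cpt2 (-0.75), Acadm (-0.88), Acadl (-0.65), Acadvl (-0.59), Hadha (-0.52), Hadhb (-0.70) and Acaa2 (-0.78). These comparisons cross cohorts, and cohort and model cannot be told apart. Of the genes named at day 2 for tenotomy minus casting, Acadl, Acadvl and Hadha turned negative under the muscle fibre scaling.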

How the results depend on the processing

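Scaling to the muscle fibre markers, mostly fast-fibre genes, changed the most. The count of 9 genes called became 1, 1 and 1 for casting at days 2, 7 and 14, 2, 0 and 0 for the tenotomy-cohort legs, 0, 1 and 0 for left legs minus sham, 1, 2 and 2 for right legs minus sham, 1 and 0 for day 14 minus day 2 in casting and tenotomy, 2, 2 and 1 for tenotomy minus casting, and 1 for right minus left legs between cohorts at day 2. The count of uncast minus naive legs became 8, all higher instead of lower, and the 1 call of left legs at day 7 was higher than sham. Among genes called in either setting, signs turned under it for Cpt2 between tenotomy-cohort legs at days 2 (-0.024) and 7 (-0.11). In tenotomy minus casting at day 2 they turned for Acadl (-0.23), Acadvl (-0.29) and Hadha (-0.10). In left legs minus sham at day 7 they turned for Cpt2 (0.28), Acadm (0.30), Acadl (0.29), Acadvl (0.0012), Hadha (0.44, uncalled before) and Hadhb (0.25). In right legs minus sham they turned at day 2 for Cpt2 (0.13) and Hadha (0.00222), and at day 7 for Cpt2 (0.39), Acadm (0.23), Acadl (0.16), Hadha (0.40), Hadhb (0.13) and Acaa2 (0.25). In uncast minus naive legs they turned for Fabp3 (0.23), Cd36 (0.63), Cpt2 (0.58), Acadm (0.46), Acadl (0.75), Acadvl (0.52), Hadha (0.88), Hadhb (0.57) and Acaa2 (0.57). Values called in neither setting also turned, among them Acaa2 in left legs minus sham at day 7 (0.45), 5 of 9 for casting at day 2 and 7 of 9 for sham minus naive legs at day 14.

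With the mean of the probe sets, 1 gene was called for casting at day 2, 4 for left legs minus sham at day 7 and 3 for uncast minus naive legs. Hadhb turned to 0.47 and 0.16 for left and right legs minus sham at day 7 and to 0.32 for right legs at day 14, and Cpt2 to 0.023 for uncast minus naive legs. Quantile normalization gave 3 for left legs minus sham at day 7, 3 for uncast minus naive legs, where Hadhb turned to 0.019, and 1 for right minus left legs between cohorts at day 7. Array weights gave 2 for that comparison and 1 for sham minus naive at day 14, as did the stricter filter. At day 14 a pseudocount of 16, the stricter filter and leaving out arrays with a raised median gave 1 each for right minus left legs between cohorts. The causes of these changes were not tested.

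The paired analysis, with the animal as a fixed replicate block, called 2, 5 and 6 genes for casting and 8, 9 and 9 for the tenotomy-cohort legs. For the tenotomy change over time it called 0, without a replicate block 1, without arrays of raised median 0, and with only the groups compared 0. Leaving out 1 array at a time gave 1 to 3 for it, 1 to 3 for left legs minus sham at day 14, where without left replicate 3 the 3 calls were 2 higher and 1 lower, and 0 to 2 for right minus left legs between cohorts at day 14.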
